A study of Mus musculus with 12 samples.

Results

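The nuclear-encoded subunits of the mitochondrial respiratory chain and ATP synthase were examined in mouse vessels during the first week of angiotensin II infusion. They were the transcript clusters whose single gene symbol starts with Ndufa, Ndufb, Ndufc, Ndufs, Ndufv, Uqcr, Cox4 to Cox8 or Atp5, or is one of the genes Sdha to Sdhd, with Ndufaf assembly factors and pseudogenes left out. This gave 83 of the 30792 genes with a symbol of their own: 34 of complex I, 4 of complex II, 8 of complex III, 20 of complex IV, 16 of complex V, and Dmac2. Dmac2 is listed under the older symbol Atp5sl and is a complex I assembly factor rather than an ATP synthase subunit, so it was counted among the 83 and put in no complex. All 83 passed the filter on dim signals, as did 22141 genes in all. Ndufa4 and its homologue Ndufa4l2 were placed with complex IV, where the Ndufa4 protein is found.

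Total RNA from vessels of male C57BL/6 mice, 8 to 10 weeks old, was measured on 12 Affymetrix arrays, 3 for each of 4 groups. Treated mice received angiotensin II, the peptide hormone that constricts arteries, from implanted osmotic pumps for 1, 3 or 7 days, at a rate of 1500 ng per kg of body weight and minute. The day 0 mice were untreated, so the operation, the Ringer's solution carrying the peptide and the peptide itself cannot be told apart. The labels describe the 3 arrays of a group as biological replicates, and do not say which vessel was taken or how much fat or muscle came with it.

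Respiratory complexes I and II pass electrons from NADH and succinate to coenzyme Q, complex III passes them on to cytochrome c, and complex IV, cytochrome c oxidase, passes them to oxygen. Complexes I, III and IV pump protons, and complex V, the ATP synthase, makes ATP from the proton gradient. Most subunits are nuclear genes, read here. In the arterial wall the contractile smooth muscle cells are the main resident cells, and brown fat around some arteries is very rich in mitochondria.

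The markers of the labelled tissue were present. Smooth muscle markers averaged 13.84 ± 0.07 log2 units at day 0 (SD, n = 3), and all 10 lay above the negative control features, as did all 9 endothelial markers tested. Signals of cell type markers and signal over background differed between the days. The smooth muscle mean fell to between 11.65 and 13.42 at day 1, between 11.05 and 12.20 at day 3 and between 8.59 and 11.16 at day 7, with 1, 4 and 9 of 10 markers called lower. The macrophage mean rose from 7.25 to 7.62 at day 0 to between 8.51 and 9.64 on the 9 treated arrays, with 8, 9 and 10 of 11 markers called higher at days 1, 3 and 7. The brown adipocyte mean was 7.81 to 8.09 at day 0 and 6.69 to 7.68 on the treated arrays, with 3 of 10 markers called lower and 1 higher on each day. T cell markers lay under the negative controls on all 12 arrays in 3 of 3 cases. Signal over background, taken as the difference between the medians of positive and negative control features, was 2.56 to 2.64 log2 units on the untreated arrays, 1.94 to 2.51 at day 1, 1.83 to 2.11 at day 3 and 1.20 to 2.10 at day 7. Each treated day compared with day 0 by an exact permutation test (two-sided) had p = 0.1, and no lower p is possible with 3 arrays in each group. In bulk RNA of this kind, fewer cells of a type and less RNA per cell cannot be told apart.

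Respiratory chain genes are known to share binding motifs of a few transcription factors in their promoters, so the sequence before the start sites was read as well as the signals. The promoters of Cox6a1, Uqcr11 and Sdhb, of complexes IV, III and II, are shown. They were picked from the genes with values on every array below whose window holds the core letters of nuclear respiratory factor 1 (NRF1). Within a complex the gene with the smallest p in the limma F test of the treated days against day 0 was taken. Only genes measured by a cluster on their own chromosome were eligible. All 3 were called lower at days 3 and 7, and all 3 also hold letters of GABPA. NRF1 and GABPA are factors known for respiratory genes. The windows come from RefSeq on build GRCm38.p6 and run 5′ to 3′ on the gene's strand, from 250 bases before to 50 bases after the start site: chr5:115348909-115349208 on the minus strand for Cox6a1, chr10:80406772-80407071 on the minus strand for Uqcr11 and chr4:140961021-140961320 on the plus strand for Sdhb. Capitals mark GCATGCG (NRF1 core, on either strand, where both strands overlap in CGCATGCG), TGCGCA (NRF1 half-site) and CCGGAAG (GABPA, on either strand).
Cox6a1: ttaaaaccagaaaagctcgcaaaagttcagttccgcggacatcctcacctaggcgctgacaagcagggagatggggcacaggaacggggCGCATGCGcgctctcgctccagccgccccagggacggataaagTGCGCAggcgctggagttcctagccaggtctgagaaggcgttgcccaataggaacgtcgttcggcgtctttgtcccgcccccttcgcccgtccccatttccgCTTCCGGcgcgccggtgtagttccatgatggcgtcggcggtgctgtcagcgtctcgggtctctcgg
Uqcr11: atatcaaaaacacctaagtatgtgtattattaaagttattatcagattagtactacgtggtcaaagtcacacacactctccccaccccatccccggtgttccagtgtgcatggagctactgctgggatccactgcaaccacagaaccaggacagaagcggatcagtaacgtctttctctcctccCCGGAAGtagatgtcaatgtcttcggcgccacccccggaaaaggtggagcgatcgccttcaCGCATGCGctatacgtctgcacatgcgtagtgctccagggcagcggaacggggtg
Sdhb: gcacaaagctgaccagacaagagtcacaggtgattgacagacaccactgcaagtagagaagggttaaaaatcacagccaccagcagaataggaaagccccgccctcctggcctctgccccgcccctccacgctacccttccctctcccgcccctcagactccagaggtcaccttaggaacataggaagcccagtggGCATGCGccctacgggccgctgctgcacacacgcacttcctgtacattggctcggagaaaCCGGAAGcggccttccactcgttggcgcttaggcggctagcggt
Counted from the start site, the NRF1 core of Cox6a1 begins at position -161 and its GABPA letters at -16. In Uqcr11 the order is the other way round, with the GABPA letters at -66 and the NRF1 core at -5. In Sdhb the NRF1 core begins at -54 and the GABPA letters lie just after the start site.

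A window was found for 68 of the 83 genes, and 15 had none in the table. The NRF1 core was in 10 of the 68, or 14.7%, against 4.0% of all 27025 genes with a window and 5.0% of the 17492 protein-coding ones. The NRF1 half-site was in 25.0% of the subunit genes against 8.8% of all genes and 11.0% of coding genes, and the GABPA letters were also in 25.0%, against 9.9% and 12.9%. YY1 letters (ATGGCGG) were in 16.2% against 4.7% and 6.1%, and those of the oestrogen-related receptor alpha (AAGGTCA) in 10.3% against 5.4% and 4.7%, each searched on both strands. Of the 50 matched genes called lower at any day, 9 held the NRF1 core and 12 the GABPA letters; of the 18 never called lower, 1 and 5 held them. The NRF1 half-site was in 14 of the 50 and 3 of the 18. Letters of the oestrogen-related receptor alpha were in 5 and 2, and those of YY1 in 6 and 5. These splits were not tested. A match of letters is a description of the sequence and does not show that a factor was bound.

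Respiratory chain signals were lower than in untreated vessels on all 3 treated days. A gene was called changed at a limma Benjamini-Hochberg adjusted p under 0.05 over all 22141 genes. At day 1, 9 of 83 genes were called lower and 0 higher, where 1.63% of all genes tested were called lower and 1.98% higher. At day 3, 48 of 83 were lower and 0 higher, against 7.1% of all genes lower and 4.58% higher. At day 7, 52 of 83 were lower and 1 higher, against 13.2% lower and 12.1% higher. The median log2 change of the 83 was -0.44 at day 1, -0.64 at day 3 and -0.59 at day 7, where the median over all genes was 0.01, 0.08 and 0.09. All 3 treated arrays lay below all 3 day 0 arrays for 53 of the 83 genes at day 1, 71 at day 3 and 64 at day 7; over all genes the same was so for 11.5%, 21.4% and 20.5%.

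The subunits are brighter than most genes, so other genes in the middle of their signal range were set beside them. Subunits brighter or dimmer than that range have no such comparison here. Among the 5785 other genes whose mean lay between 7.00 and 9.14, the lower and upper quartile of the subunits, 2.85%, 13.2% and 23.7% were called lower at days 1, 3 and 7, with medians of -0.02, -0.11 and -0.16. Among the 4368 of them that code for proteins the shares were 3.46%, 15.8% and 28.4%. Positive control features fell as well. Their median was 8.54 to 8.64 on the day 0 arrays, within this signal range. It was 7.97 to 8.64 at day 1, 7.93 to 8.09 at day 3 and 7.33 to 8.16 at day 7. Beyond the covariate fit below, the part of this fall in the subunit changes was not tested. The median of all transcript clusters on an array rose by 0.18 from day 0 to day 3 and by 0.27 to day 7, and the changes given here are not relative to it. With each array centred on its median, 3, 44 and 65 of the 83 genes were called lower and 0, 0 and 1 higher, and the share of all calls that were lower was 33.6%, 77.0% and 79.1%, where it was 45.1%, 60.8% and 52.1% in the values as deposited. With quantile normalization 4, 27 and 52 of the 83 were called lower.

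**Figure D1:**
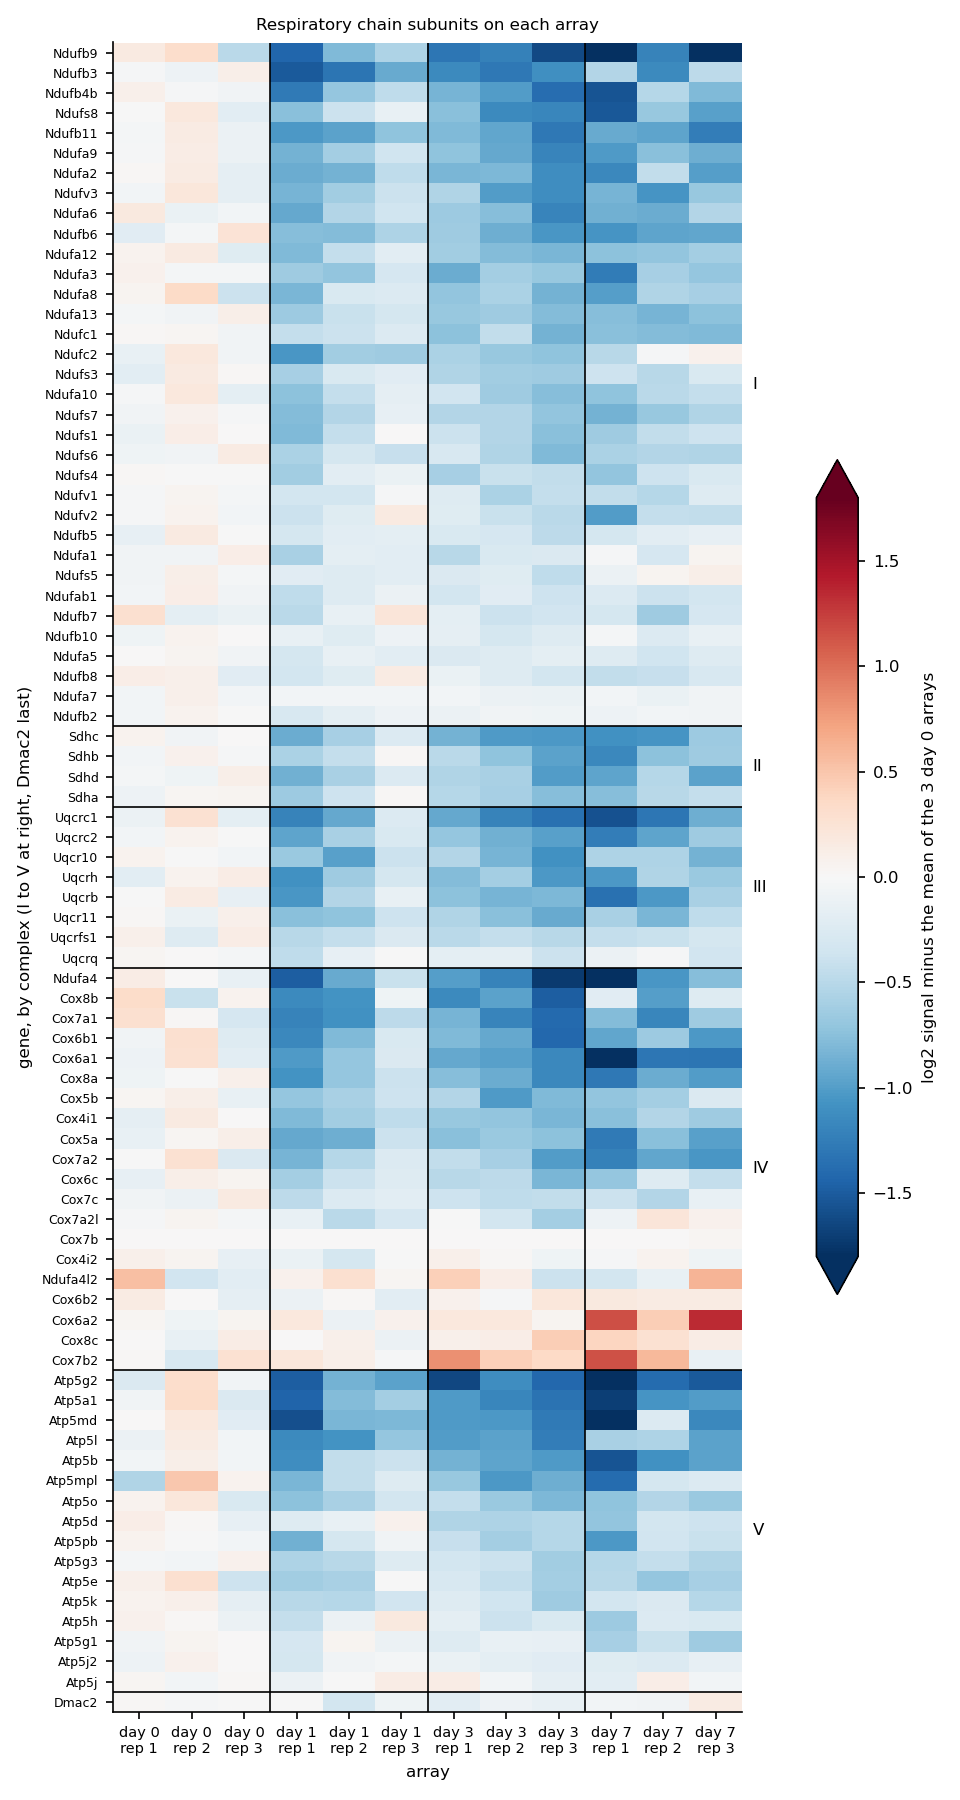
Log2 signal of each of the 83 genes (rows, by complex and ordered by the change at day 3) on each of the 12 arrays (columns), minus the gene's mean over the 3 day 0 arrays; blue is lower, red is higher, and the darkest shades also stand for values beyond the ends of the colour scale. Most rows are blue on the treated arrays, day 1 replicate 3 is the palest of the treated columns, and the red rows lie among the complex IV isoforms.

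The decrease was in place at day 3, and no subunit was called between day 3 and day 1 or between day 7 and day 3. Day 7 against day 1 was not tested. Of the 83 genes, 42 were called lower at both day 3 and day 7, 6 at day 3 but not day 7, and 10 at day 7 but not day 3. All 9 of day 1 were called again at day 3 and 8 of them also at day 7, while 25 genes were called lower on no day. Between day 3 and day 1, limma called 0 of the 83 genes, and 0 of all 22141 in either direction. Between day 7 and day 3 it also called 0 of 83, where 0.154% of all genes were called lower and 0.113% higher. The F test over the 3 treated days against day 0 called 40 of 83 genes, against 14.6% of all genes.

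Single arrays weighed on these counts. At day 1 the array of replicate 3 stayed nearest to untreated vessel: the mean over the 83 genes was 8.40 to 8.52 on the day 0 arrays and 7.78, 8.00 and 8.22 on the day 1 arrays of replicates 1, 2 and 3. The smooth muscle mean on these 3 arrays was 11.65, 12.27 and 13.42, and the control feature difference was 1.94, 2.30 and 2.51, in the same order. Without that array 22 genes were called lower at day 1; without day 1 replicate 1, day 1 replicate 2 or day 0 replicate 3 it was 0, without day 0 replicate 2 it was 2, and without day 0 replicate 1, day 3 replicate 1 or day 3 replicate 3 it was 5. Of all genes, 361 were called lower at day 1 in the main fit and 597 without day 1 replicate 3. In the settings that left 0 subunits, 72, 37 and 60 of all genes were called lower, in the order given. The 48 genes of day 3 became 17, 13 and 18 without day 0 replicate 1, 2 or 3, 13 without day 3 replicate 2 and 9 without day 3 replicate 3. Over all genes the 1572 lower calls of day 3 became 796, 625, 540, 644 and 418 in the same order. The 52 genes of day 7 became 32 without day 0 replicate 1 or day 7 replicate 1, and 31 without day 0 replicate 2. Over all genes the 2913 lower calls of day 7 became 1838, 1925 and 1748 in the same order. For the F test the 40 genes became 11, 9 and 9 without day 0 replicate 1, 2 or 3, and 18, 17 and 22 without day 1 replicate 2, day 3 replicate 2 or day 3 replicate 3. Over all genes the 3241 F test calls became 1364, 1137, 1021, 1913, 2051 and 1992 in the same order.

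Fits that include a marker mean or the control feature difference as a covariate called fewer genes. When the control feature difference was added to the fit, 6, 1 and 1 genes were called lower at days 1, 3 and 7, and of all genes 368, 192 and 285; the median change of the 83 was then -0.33, -0.33 and -0.25. With the brown adipocyte mean as a covariate 0, 12 and 24 of the 83 were called lower, and of all genes 0, 517 and 1500. With the smooth muscle or the macrophage mean as a covariate, added after seeing the data, limma called 0 of 83 on each day, but also at most 26 of all 22141 genes lower on any day. The median change of the 83 was -0.46, -0.65 and -0.61 with the brown adipocyte mean, -0.29, -0.38 and -0.10 with the smooth muscle mean and -0.23, -0.36 and -0.34 with the macrophage mean. With the smooth muscle mean, 49 of the 83 genes had a change below 0 at day 7. The control feature difference and the smooth muscle and macrophage means separate the day 0 arrays from all 9 treated arrays. So does the brown adipocyte mean given above, over the 10 markers tested. The brown adipocyte covariate also took in markers that the filter on dim signals left out.

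**Figure D2:**
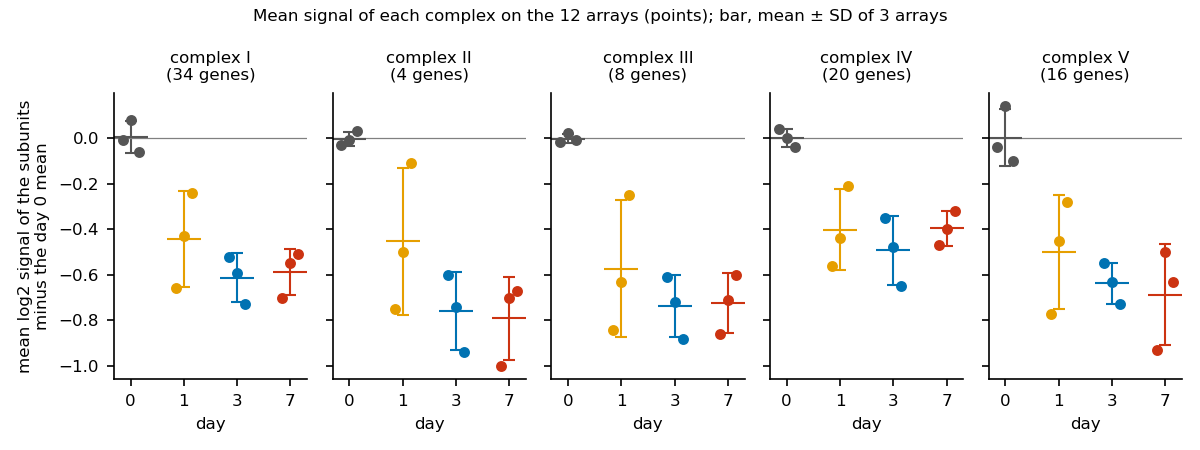
Mean log2 signal over the subunits of each complex on each array (points), minus the mean of the 3 day 0 arrays, with the mean and SD of each group of 3 arrays as a bar, by day. In each of the 5 complexes all treated arrays lie below all day 0 arrays, and the treated days overlap each other.

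Complex I, the largest, takes electrons from NADH. Its 34 genes averaged 8.32 to 8.46 on the day 0 arrays, 7.72 to 8.14 at day 1, 7.65 to 7.86 at day 3 and 7.68 to 7.87 at day 7, so every treated array lay below day 0. Of the 34, 5 were called lower at day 1, 20 at day 3 and 23 at day 7, and none was called higher; the median change was -0.43, -0.59 and -0.59. The core subunits carry the flavin and the iron-sulphur clusters, and 6 of them are nuclear genes named here (Ndufs1, Ndufs3, Ndufs7, Ndufs8, Ndufv1 and Ndufv2). Of these 6, 3 were called lower at day 3 and 5 at day 7, with medians of -0.57 and -0.55. Of the 28 accessory subunits, 17 and 18 were called lower, with medians of -0.67 and -0.62.

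The 4 complex I genes with the smallest F test p were all accessory subunits of the membrane arm. Ndufa13, also known as GRIM-19, read 8.01, 7.99 and 8.15 at day 0, 7.39, 7.65 and 7.73 at day 1, 7.37, 7.41 and 7.27 at day 3, and 7.28, 7.22 and 7.31 at day 7. All treated arrays lay below day 0, and Ndufa13 was called on each day, with falls of 0.46 ± 0.09, 0.70 ± 0.09 and 0.78 ± 0.09 on the log2 scale (± SE; limma adjusted p = 0.0335, 0.00447 and 0.00137). Ndufc1 read 6.93, 6.95 and 6.85 at day 0, 6.48, 6.52 and 6.66 at day 1, 6.17, 6.46 and 6.06 at day 3, and 6.16, 6.13 and 6.11 at day 7. Here the 3 day 3 arrays also lay below the 3 day 1 arrays, and the fall was 0.68 ± 0.10 at day 3 and 0.77 ± 0.10 at day 7 (limma adjusted p = 0.00586 and 0.00182), while at day 1 the change of -0.36 ± 0.10 was not called (0.0934). Ndufb11 read 7.84, 8.03 and 7.77 at day 0, 6.85, 6.92 and 7.16 at day 1, 7.09, 6.94 and 6.60 at day 3, and 6.97, 6.93 and 6.63 at day 7. It had already fallen by 0.90 ± 0.15 at day 1 (limma adjusted p = 0.0161) and stood at a fall of 1.04 ± 0.15 at day 7 (0.0025), with no overlap with day 0 on any day. Ndufb6 read 8.43, 8.60 and 8.88 at day 0, 7.87, 7.85 and 8.08 at day 1, 7.99, 7.76 and 7.59 at day 3, and 7.58, 7.69 and 7.70 at day 7. Its falls of 0.71 ± 0.13, 0.86 ± 0.13 and 0.98 ± 0.13 were called on each day (limma adjusted p = 0.0263, 0.00702 and 0.00213).

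The other complex I subunits ranged from a mean change of -1.88 for Ndufb9 to 0.02 for Ndufs5 at day 7. Ndufb9 went from 11.94 at day 0 to 11.02, 10.56 and 10.06 at days 1, 3 and 7, a linear signal at day 7 of 0.27 of that in untreated vessel. Ndufb3 fell by 1.25 at day 1 and stood at -0.72 at day 7, called on both days. At the other end Ndufa7 had group means of 7.32, 7.27, 7.23 and 7.24 and Ndufb2 of 7.07, 6.89, 6.99 and 7.00, with no call on any day. Ndufc2 and Ndufs5 were called lower at day 3 (limma adjusted p = 0.0353 and 0.0465) and not at day 7, where their changes were -0.14 and 0.02 (0.524 and 0.87). Among the core subunits Ndufs8, which holds iron-sulphur clusters of the arm that reaches into the matrix, changed by -1.03 and -1.06 at days 3 and 7.

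**Figure D3:**
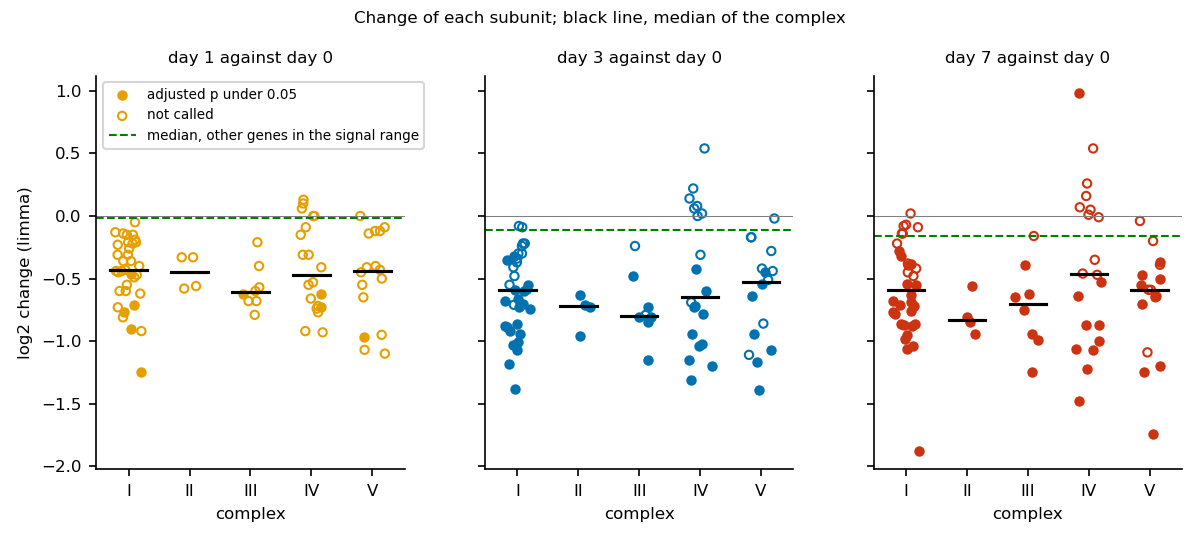
Log2 change against day 0 (limma) of every subunit, by complex, at days 1, 3 and 7; filled points were called, open points were not, black lines are the medians of the complexes, and the green dashed line is the median of the other genes in the same signal range. At days 3 and 7 the 5 medians lie between -0.46 and -0.83, below the dashed line at -0.11 and -0.16, and the filled point above 0 at day 7 is Cox6a2.

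Complex II, succinate dehydrogenase, belongs to both the respiratory chain and the tricarboxylic acid cycle, and all of its subunits are nuclear genes. All 4 were called lower at day 3 and at day 7 and none at day 1. Sdha, which holds the flavin and oxidises succinate, read 9.57, 9.69 and 9.71 at day 0, 9.0, 9.28 and 9.68 at day 1, 9.14, 9.06 and 8.89 at day 3, and 8.89, 9.16 and 9.23 at day 7. Day 1 replicate 3 lay within the day 0 range, while the day 3 and day 7 arrays lay below it; the falls were 0.63 ± 0.16 and 0.56 ± 0.16 (limma adjusted p = 0.0379 and 0.0355). Sdhb, the iron-sulphur subunit whose promoter is printed above, read 8.61, 8.74 and 8.64 at day 0, 8.09, 8.23 and 8.69 at day 1, 8.18, 7.94 and 7.70 at day 3, and 7.50, 7.92 and 8.02 at day 7. It too overlapped with day 0 through day 1 replicate 3, and it fell by 0.73 ± 0.19 at day 3 and 0.85 ± 0.19 at day 7 (limma adjusted p = 0.0381 and 0.0137). Sdhc, a membrane anchor that forms the site for coenzyme Q, read 7.85, 7.72 and 7.79 at day 0, 6.90, 7.19 and 7.54 at day 1, 6.93, 6.77 and 6.76 at day 3, and 6.69, 6.73 and 7.13 at day 7. All treated arrays lay below day 0, with a fall of 0.96 ± 0.16 at day 3 and 0.94 ± 0.16 at day 7 (limma adjusted p = 0.00917 and 0.00533). Sdhd, the other anchor, read 7.57, 7.52 and 7.71 at day 0, 6.73, 7.02 and 7.35 at day 1, 7.06, 7.01 and 6.60 at day 3, and 6.65, 7.09 and 6.64 at day 7. Its 9 treated arrays were likewise all below day 0, and it fell by 0.71 ± 0.19 and 0.81 ± 0.19 (limma adjusted p = 0.0411 and 0.0169).

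Complex III, the cytochrome bc1 complex, had 1, 6 and 7 of its 8 genes called lower at days 1, 3 and 7, with median changes of -0.61, -0.80 and -0.70. Its mean was 8.42 to 8.46 at day 0 and 7.56 to 8.19 on the treated arrays. Uqcrc1, the core protein 1, read 9.24, 9.62 and 9.16 at day 0, 8.14, 8.42 and 9.09 at day 1, 8.42, 8.14 and 8.00 at day 3, and 7.77, 8.04 and 8.46 at day 7. It had the largest fall of the complex, 1.15 ± 0.26 at day 3 and 1.25 ± 0.26 at day 7 (limma adjusted p = 0.0238 and 0.0108), and was not called at day 1, when its arrays spread from 8.14 to 9.09. Uqcrc2, the core protein 2, read 9.77, 9.88 and 9.81 at day 0, 8.87, 9.23 and 9.54 at day 1, 9.12, 8.96 and 8.84 at day 3, and 8.57, 8.87 and 9.18 at day 7. All treated arrays were below day 0, and the falls at days 3 and 7 were 0.85 ± 0.19 and 0.94 ± 0.19 (limma adjusted p = 0.0213 and 0.00839). Uqcr11, a small accessory subunit whose promoter is printed above, read 6.32, 6.18 and 6.39 at day 0, 5.54, 5.57 and 5.93 at day 1, 5.76, 5.54 and 5.39 at day 3, and 5.72, 5.48 and 5.84 at day 7. It was the 1 gene of the complex called at day 1, with a fall of 0.62 ± 0.14, and stayed lower by 0.73 ± 0.14 and 0.62 ± 0.14 at days 3 and 7 (limma adjusted p = 0.0477, 0.0146 and 0.0157). Its signal was under the negative controls on 9 of 12 arrays, all of them treated, so the sizes of these falls are limited by background. Uqcr10, another small subunit, read 7.19, 7.13 and 7.08 at day 0, 6.47, 6.16 and 6.74 at day 1, 6.60, 6.30 and 6.05 at day 3, and 6.58, 6.58 and 6.28 at day 7. Its falls of 0.81 ± 0.17 and 0.65 ± 0.17 at days 3 and 7 were called (limma adjusted p = 0.0185 and 0.0255). Uqcrq, which binds coenzyme Q, was called on no day, with group means of 8.04, 7.83, 7.80 and 7.88.

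Complex IV, cytochrome c oxidase, was the complex whose members differed most in kind, since several of its subunits have a second isoform found in few tissues. Of its 20 genes, 2, 11 and 9 were called lower at days 1, 3 and 7, and 1 higher at day 7. The 12 widely expressed subunits had 2, 9 and 8 calls, all lower, with medians of -0.59, -0.73 and -0.76. The 8 tissue-restricted isoforms had 0, 2 and 1 lower and 1 higher, with medians of -0.05, 0.07 and 0.11. Across the complexes, 10 of the 83 genes lay under the negative controls on 6 or more arrays, and 6 of these 10 were in complex IV. These 6 are all restricted isoforms (Cox4i2, Cox6a2, Cox6b2, Cox7b2, Cox8c and Ndufa4l2), so the medians near 0 rest mostly on genes near background. The part of background in these medians was not tested. The restricted isoforms with more signal, Cox7a1 and Cox8b, were both called lower at day 3.

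Cox6a1, whose promoter is printed above, is the widely expressed form of a small nuclear subunit and read 11.70, 12.07 and 11.60 at day 0, 10.77, 11.09 and 11.53 at day 1, 10.87, 10.81 and 10.63 at day 3, and 9.95, 10.49 and 10.47 at day 7. Its 3 day 7 arrays lay below its 3 day 3 arrays as well as below day 0. It fell by 1.02 ± 0.22 at day 3 and 1.48 ± 0.22 at day 7 (limma adjusted p = 0.0189 and 0.00267), to a linear signal of 0.36 of that at day 0. Cox4i1, the widely expressed form of the largest nuclear subunit, read 7.17, 7.50 and 7.34 at day 0, 6.54, 6.71 and 6.88 at day 1, 6.66, 6.63 and 6.52 at day 3, and 6.59, 6.81 and 6.69 at day 7. It was called on each day, with falls of 0.62 ± 0.11, 0.73 ± 0.11 and 0.64 ± 0.11 (limma adjusted p = 0.0226, 0.0067 and 0.00555). Cox8a read 10.85, 10.92 and 11.02 at day 0, 9.86, 10.24 and 10.55 at day 1, 10.17, 10.04 and 9.77 at day 3, and 9.64, 10.04 and 9.93 at day 7. All treated arrays of Cox8a were below day 0, with falls of 0.94 ± 0.18 and 1.06 ± 0.18 at days 3 and 7 (limma adjusted p = 0.0135 and 0.00464). Cox5a, a nuclear subunit that sits on the matrix side, read 8.26, 8.42 and 8.49 at day 0, 7.47, 7.51 and 8.01 at day 1, 7.64, 7.72 and 7.65 at day 3, and 7.12, 7.64 and 7.41 at day 7. It too was called on each day, falling by 0.73 ± 0.16, 0.72 ± 0.16 and 1.00 ± 0.16 (limma adjusted p = 0.045, 0.0247 and 0.00426).

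Cox7b stood apart from these, since it read 10.40 on 11 arrays and 10.43 on day 7 replicate 3. A value so nearly equal on every array limits what it can show. Cox7a2l, a factor of respiratory supercomplexes, was called on no day, with group means of 9.75, 9.43, 9.43 and 9.81.

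The isoform pairs were compared through the difference between the log2 signals of their 2 genes on each array. The exact permutation F test over 15400 divisions of the 12 arrays into 4 groups was run for 7 pairs, with Benjamini-Hochberg adjustment over the 7; the smallest p it allows is 6.49e-05. Levels of different probes are not comparable, so only changes of a difference are read. Cox7b2 and Cox6b2 lay under the negative controls on 12 of 12 arrays, Cox6a2 on 11, Ndufa4l2 on 10 and Cox4i2 on 7. A gene at background gives no firm level, so the differences in these 5 pairs are not read as a change between isoforms.

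Cox6a2, the heart and skeletal muscle form, was the subunit called higher. It read 4.93, 4.82 and 4.94 at day 0, 5.09, 4.79 and 4.98 at day 1, 5.09, 5.09 and 4.94 at day 3, and 6.05, 5.34 and 6.24 at day 7. The 3 day 7 arrays lay above all other arrays, while days 0, 1 and 3 were close together, and the rise at day 7 was 0.98 ± 0.20 (limma adjusted p = 0.0089). The difference Cox6a2 minus Cox6a1 averaged -6.89 ± 0.31, -6.18 ± 0.45, -5.73 ± 0.05 and -4.43 ± 0.64 at days 0, 1, 3 and 7 (SD, n = 3 each), a change of 2.46 at day 7 (exact p = 0.00026, adjusted 0.00182). With Cox6a2 under the negative controls on 11 of 12 arrays, this is not read as a change between isoforms. At day 7 markers of striated muscle also rose: 6 of 8 skeletal and 6 of 8 cardiac markers were called higher, against 12.1% of all genes tested. The cardiac mean was 6.03 to 6.26 on the arrays of days 0, 1 and 3 and 6.98 to 7.12 at day 7, and the skeletal mean 5.49 to 5.96 and 5.85 to 6.87. Many of these signals are dim: 6 of the 8 skeletal and 4 of the 8 cardiac markers lay under the negative controls on 6 or more arrays. Of the markers on the array, the filter on dim signals left 8 of 12 skeletal and 8 of 9 cardiac ones. A dim marker can pass that filter through the day 7 arrays alone, so these calls are no independent support for a rise. The part of these markers in the Cox6a2 result was not tested. Only the day 7 arrays of Cox6a2 reached the 5.25 of the filter on dim signals. It entered the test through the group where it was high, so its call is no independent support for a rise. With the filter at the 60th percentile Cox6a2 was not tested, and with only the 6 arrays of days 0 and 7 in the fit it was not called.

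Cox4i2, the form known from lung and induced by low oxygen, read 6.23, 6.18 and 5.99 at day 0, 6.01, 5.82 and 6.12 at day 1, 6.23, 6.16 and 6.06 at day 3, and 6.11, 6.20 and 6.06 at day 7, with no call on any day. The difference Cox4i2 minus Cox4i1 rose from -1.20 ± 0.23 at day 0 to -0.73 ± 0.18, -0.45 ± 0.02 and -0.58 ± 0.08 (exact p = 0.00136, adjusted 0.00477), with the change in Cox4i1. With Cox4i2 under the negative controls on 7 of 12 arrays, it too is not read as a change between isoforms. Ndufa4 read 11.60, 11.47 and 11.33 at day 0, 9.98, 10.56 and 11.06 at day 1, 10.48, 10.26 and 9.74 at day 3, and 9.64, 10.42 and 10.70 at day 7. It fell by 1.31 ± 0.33 and 1.22 ± 0.33 at days 3 and 7 (limma adjusted p = 0.0338 and 0.0281). Its homologue Ndufa4l2, a hypoxia-induced gene, read 6.06, 5.17 and 5.32 at day 0, 5.59, 5.81 and 5.55 at day 1, 5.95, 5.63 and 5.13 at day 3, and 5.19, 5.39 and 6.13 at day 7. The days overlapped and it was not called. Cox6b1, a subunit that faces the intermembrane space, read 12.39, 12.73 and 12.22 at day 0, 11.29, 11.65 and 12.17 at day 1, 11.65, 11.52 and 11.03 at day 3, and 11.51, 11.79 and 11.41 at day 7. It fell by 1.04 ± 0.24 and 0.87 ± 0.24 at days 3 and 7 (limma adjusted p = 0.0268 and 0.0312). Its testis form Cox6b2 read between 4.95 and 5.34 on all 12 arrays, under the negative controls, with no call. The differences of these last 2 pairs passed the test (adjusted exact p = 0.0477 for each), with the restricted gene at background.

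Cox7a1, the form of heart, skeletal muscle and brown fat, read 8.34, 8.07 and 7.75 at day 0, 6.85, 6.97 and 7.58 at day 1, 7.21, 6.86 and 6.65 at day 3, and 7.27, 6.88 and 7.41 at day 7. It lay below day 0 on all treated arrays and was called lower at days 3 and 7, by 1.15 ± 0.24 and 0.87 ± 0.24 (limma adjusted p = 0.0183 and 0.0309). Cox7a2, its widely expressed partner, read 10.59, 10.87 and 10.34 at day 0, 9.77, 10.09 and 10.35 at day 1, 10.16 and 9.59 at day 3 with the replicate 2 array between them, and 9.39, 9.67 and 9.55 at day 7, a fall of 1.07 ± 0.20 at day 7 (limma adjusted p = 0.00678) and a change of -0.69 ± 0.20 at day 3 that was not called (0.0535). The difference Cox7a1 minus Cox7a2 changed by -0.39, -0.46 and 0.20 (exact p = 0.0369, adjusted 0.0517), so the pair did not pass after adjustment. Cox8b, also a form of striated muscle and brown fat, read 7.58, 6.85 and 7.32 at day 0, 6.10, 6.18 and 7.17 at day 1, 6.11, 6.29 and 5.76 at day 3, and 7.05, 6.26 and 7.02 at day 7. It was called lower at day 3, by 1.20 ± 0.33 (limma adjusted p = 0.0454), and at day 7 its change of -0.47 ± 0.33 was not called (0.288). Cox8b minus Cox8a changed by -0.05, -0.26 and 0.59 (exact p = 0.129, adjusted 0.151). Cox7b2 minus Cox7b did not pass (exact p = 0.25). The brown adipocyte markers did not all move one way. Fabp3, a fatty acid binding protein, changed by -1.49, -1.70 and -1.35 at days 1, 3 and 7, called on each day. Ucp1, which uncouples respiration in brown fat, changed by -5.45, -1.70 and -3.08 and was called at day 1 only (limma adjusted p = 0.0494, 0.391 and 0.0946), and Dio2, which activates thyroid hormone, was called higher at days 1 and 3 (2.01 and 2.00). With the brown adipocyte mean in the fit, Cox7a1 changed by -0.95 and -0.61 at days 3 and 7 and Cox8b by -0.85 at day 3, none of them called (limma adjusted p = 0.0889, 0.192 and 0.187).

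**Figure D4:**
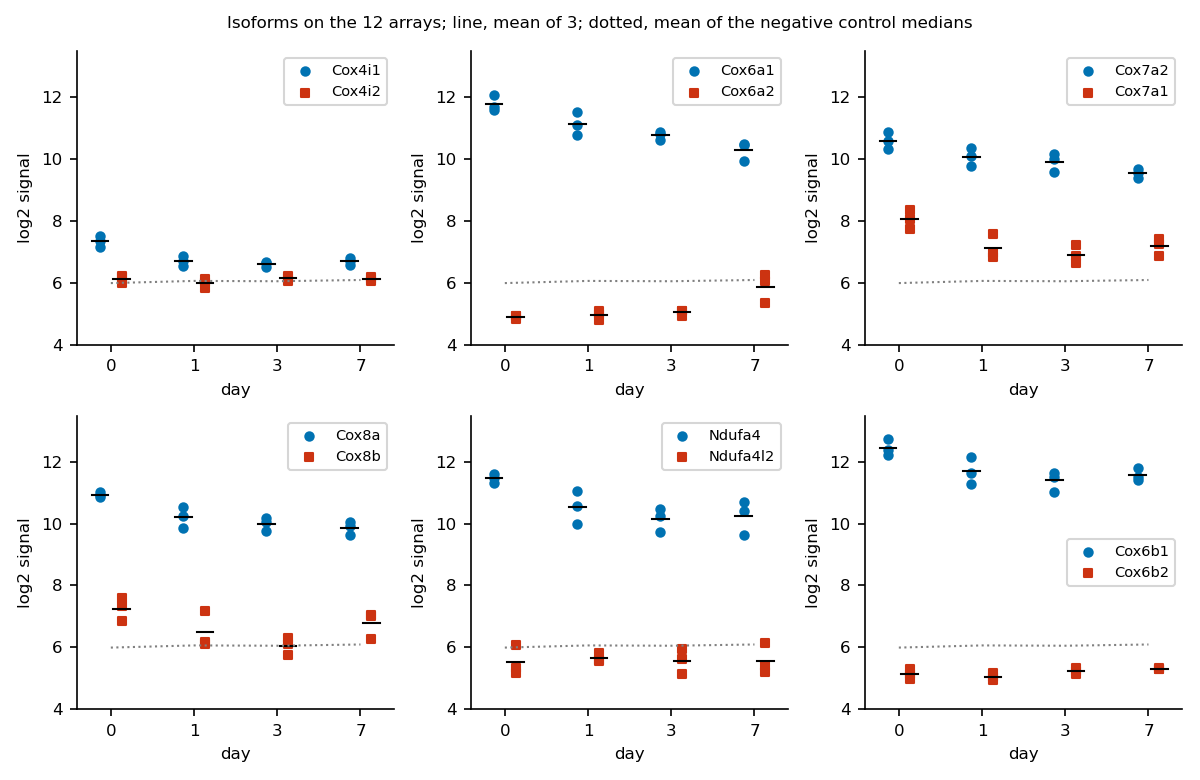
Log2 signal on each of the 12 arrays of 6 pairs of complex IV isoforms, by day; circles are the widely expressed gene, squares the tissue-restricted one, short lines the mean of 3 arrays, and the dotted line the mean of the negative control medians. The tested pair Cox7b2 and Cox7b is not drawn. The circles fall after day 0 in every panel drawn, while among the squares Cox6a2 rises at day 7, Cox7a1 falls, and Cox4i2, Ndufa4l2 and Cox6b2, which were not called, lie near or under the negative controls.

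Complex V, the ATP synthase, had 1, 7 and 9 of its 16 genes called lower at days 1, 3 and 7, with medians of -0.44, -0.53 and -0.59. Its mean was 8.79 to 9.03 at day 0 and 7.96 to 8.61 on the treated arrays, lowest on day 7 replicate 1. In the catalytic F1 head 3 of the 4 genes named here were called lower at days 3 and 7, with medians of -0.74 and -0.90. Atp5b, the catalytic beta subunit, read 9.99, 10.14 and 9.99 at day 0, 8.92, 9.60 and 9.65 at day 1, 9.19, 9.09 and 9.02 at day 3, and 8.48, 8.95 and 9.08 at day 7. All treated arrays were below day 0, and the falls of 0.94 ± 0.20 and 1.20 ± 0.20 at days 3 and 7 were called (limma adjusted p = 0.0208 and 0.00486). Its partner Atp5a1, the alpha subunit, changed by -1.17 and -1.25 (limma adjusted p = 0.0215 and 0.0102).

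The proton-carrying ring is built of c subunits, which 3 genes encode with the same mature protein, and these 3 genes moved by different amounts. Atp5g2 read 10.72, 11.31 and 10.93 at day 0, 9.50, 10.13 and 10.02 at day 1, 9.35, 9.87 and 9.57 at day 3, and 8.68, 9.60 and 9.47 at day 7. It fell by 1.39 ± 0.28 at day 3 and 1.74 ± 0.28 at day 7 (limma adjusted p = 0.0156 and 0.00369), to a linear signal of 0.30 of that at day 0. Atp5g1 read 7.39, 7.51 and 7.47 at day 0, 7.16, 7.51 and 7.35 at day 1, 7.23, 7.33 and 7.31 at day 3, and 6.86, 7.06 and 6.81 at day 7. It was not called before day 7, when all 3 arrays lay below the day 0, day 1 and day 3 arrays and the fall was 0.55 ± 0.10 (limma adjusted p = 0.00619). Atp5g3 changed by -0.43, -0.45 and -0.50, called at days 3 and 7. The brightest cluster named Atp5g2 carries an identifier of chromosome 7, while the gene lies on chromosome 15; its cluster on chromosome 15 gave -1.23, -1.39 and -1.73, called on each day.

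Atp5l, the small membrane subunit g, read 12.68, 12.93 and 12.73 at day 0, 11.64, 11.71 and 12.08 at day 1, 11.77, 11.82 and 11.54 at day 3, and 12.19, 12.23 and 11.81 at day 7. It was called on each day, with falls of 0.97 ± 0.15, 1.07 ± 0.15 and 0.70 ± 0.15 (limma adjusted p = 0.0147, 0.00521 and 0.0122). This cluster carries an identifier of chromosome 5, and the gene lies on chromosome 9; the brighter cluster on chromosome 9 gave -0.56, -0.34 and -0.22 and was called on no day (limma adjusted p = 0.0953, 0.194 and 0.298), so the call of Atp5l depends on the cluster. The peripheral stalk holds the head still against the turning ring, and 1 of its 4 genes, Atp5o, was called, by -0.64 at days 3 and 7. Atp5j, also of the stalk, had group means of 7.04, 7.04, 7.02 and 7.00. Dmac2, in no complex, had group means of 5.86, 5.72, 5.71 and 5.87 and no call.

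The rest of the pathway did not move as one, in lists chosen with results of these data known. For all genes tested the shares called lower were 1.63%, 7.1% and 13.2% at days 1, 3 and 7. The tricarboxylic acid cycle and pyruvate dehydrogenase, which feed NADH and succinate to the chain, had 0, 12 and 12 of 17 tested genes called lower at days 1, 3 and 7 and none higher, with medians of -0.56, -0.91 and -0.87. Ogdh, the 2-oxoglutarate dehydrogenase, changed by -0.98 ± 0.26, -1.40 ± 0.26 and -1.62 ± 0.26, citrate synthase (Cs) by -0.99 ± 0.30, -1.43 ± 0.30 and -1.58 ± 0.30, and Pdha1 of pyruvate dehydrogenase by -1.07 ± 0.38, -1.35 ± 0.38 and -1.47 ± 0.38, all called at days 3 and 7. Carriers and porins of the mitochondrial membranes had 0, 2 and 6 of 9 called lower; the ATP/ADP carrier Slc25a4 changed by -1.20 ± 0.30 at day 7 (limma adjusted p = 0.0224). Of 15 genes of electron carriers and coenzyme Q synthesis 1, 3 and 3 were lower. They included Coq10b, a coenzyme Q binding protein, which changed by -1.16, -1.28 and -1.99 at days 1, 3 and 7, and Cyc1, cytochrome c1 of complex III, which lies outside the symbol rule and changed by -0.73 ± 0.15 and -0.86 ± 0.15 at days 3 and 7. Cycs, cytochrome c itself, was not called, at -0.24 and -0.44.

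Genes that build the complexes or express the mitochondrial genome showed smaller medians than the subunits. Of 43 assembly factors 2, 6 and 5 were called lower at days 1, 3 and 7, with medians of -0.04, -0.07 and -0.09; among those called, Higd2a, an assembly factor of cytochrome c oxidase, changed by -1.01 ± 0.16, -1.25 ± 0.16 and -1.21 ± 0.16. Of 72 mitochondrial ribosomal proteins 1, 4 and 16 were lower, with medians of -0.09, -0.12 and -0.13. Of 42 cytosolic ribosomal proteins 0, 0 and 11 were lower, with medians of -0.06, -0.09 and -0.19. At day 3 these lists had 14%, 5.56% and 0% called lower, against 7.1% of all genes tested. At day 7 they had 11.6%, 22.2% and 26.2%, against 13.2% of all genes and 23.7% of other genes in the subunits' signal range. Of the 43 assembly factors 12, of the 72 mitochondrial ribosomal proteins 14 and of the 42 cytosolic ribosomal proteins 2 lay under the negative controls on 6 or more arrays. The differences between lists were not tested. Of 14 regulators of respiratory genes 0, 1 and 0 were called: Yy1, by -0.34 at day 3. Nrf1 (0.08, -0.07 and -0.01), Gabpa (-0.01, -0.27 and -0.20) and the mitochondrial transcription factor Tfam (-0.13, -0.16 and -0.05) were not called on any day. The coactivator Ppargc1a changed by -1.47 ± 0.36, -0.83 ± 0.36 and 0.25 ± 0.36, with no call (limma adjusted p = 0.0567, 0.163 and 0.61). Of the genes encoded by the mitochondrial genome 2 were named and tested, and both sat at the ceiling of the scale, so no change can be read for them.

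**Figure D5:**
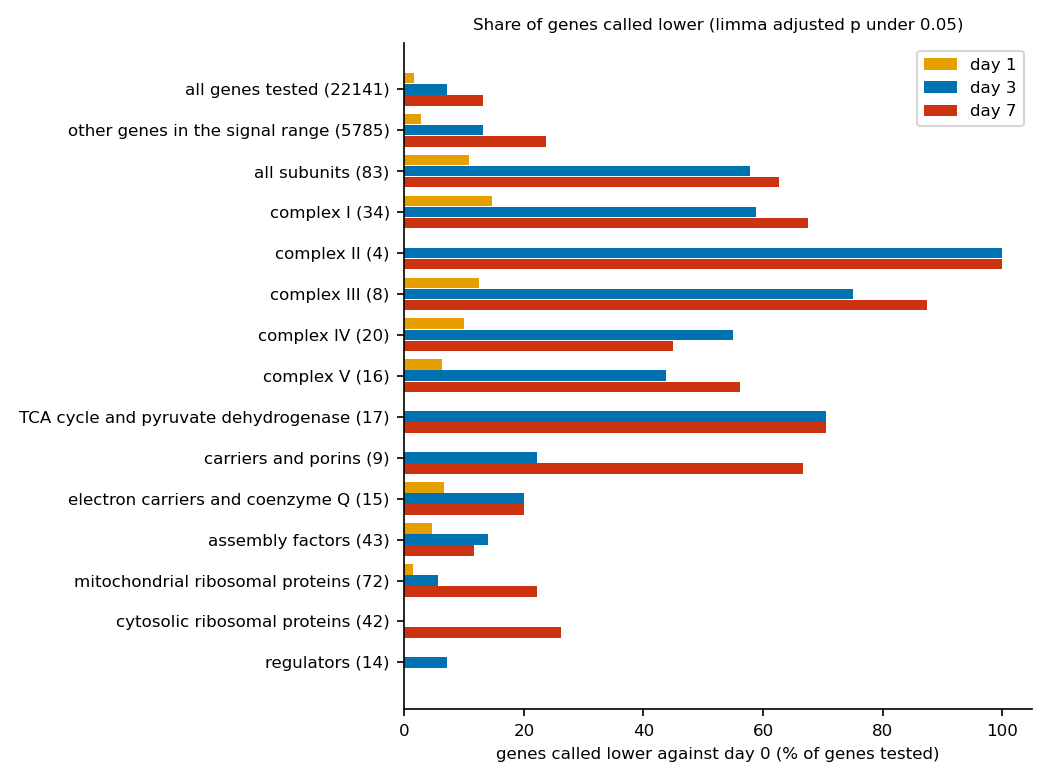
Share of tested genes called lower against day 0 (limma adjusted p under 0.05) at days 1, 3 and 7 for all genes, for other genes in the signal range of the subunits, for the subunits and each complex, and for the other lists, with the number of genes tested in parentheses. At day 3 the subunits reach 57.8% and the tricarboxylic acid cycle list 70.6%, where all genes reach 7.1%.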

How the data were processed

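Total RNA was measured on 12 Affymetrix arrays, 3 per group, and the authors deposited 1 table of log2 signals per transcript cluster. The submitters' processing notes name Affymetrix Expression Console; for its version, background correction and normalization, nothing is given in the sources used here. An older mouse array is named in the labels, but the identifiers are transcript clusters of another design, so genes were named from the platform annotation, with symbols updated through gene identifiers. Of 65956 transcript clusters 31438 have 1 symbol, 1312 several and 33206 none.

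The deposited values were used without further normalization. For each gene the cluster with the highest mean over 12 arrays was taken, and genes were kept where at least 3 arrays reached the 40th percentile of all clusters (5.25). Groups were compared in R 4.3.3 with limma 3.58.1, all 12 arrays in 1 fit with a mean per group and 8 residual degrees of freedom, and p-values were Benjamini-Hochberg adjusted over all genes kept. Isoform pairs were tested with an exact permutation F test. The number of arrays limits the precision. The fit was first tested on simulated data. The members, lists and tests were chosen with earlier results of these data known. Genes with values on every array are, in complexes I, III, IV and V, the 4 with the smallest F test p, with all Sdh genes, any gene called higher and both genes of each isoform pair; of other lists at most 3 called genes by the largest change, and regulators, Cycs, brown adipocyte markers and further subunits were named after their values were seen.

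Alternatives were quantile normalization, centring, other filters, the mean of a gene's clusters, a robust fit with a variance trend, a block for the replicate number, covariates, only the 6 arrays compared and each array left out. Added after seeing the data were the macrophage and smooth muscle covariates, clusters on the gene's own chromosome, protein-coding genes only and constant genes left out. Same-numbered arrays of days 1 and 7, a pair of days not compared here, deviated together (correlations from 0.364 to 0.663). Those of the other pairs of days ranged from -0.508 to 0.352, so the number was not taken to pair the arrays. Clusters named for several genes (Ndufa11 with Ndufa11b, Ndufb4 with Gm3244) were left out.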

Additional observations from a re-analysis of the deposited data

How the results depend on the processing

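The median change of the 83 genes against day 0 was negative on each day under every alternative run, and the counts of calls moved. Calls over all genes moved too, with counts for the covariates and for some of the arrays left out given above. Lower calls at day 1 were 9 in the main fit, 4 with quantile normalization, 3 with centring, 2 with only the 6 arrays compared, 0 with the brown adipocyte, macrophage or smooth muscle covariate, and 0 to 22 with 1 array left out. At day 3 the 48 became 27 with quantile normalization, 12 with the brown adipocyte covariate, 1 with the control-feature covariate, 0 with the macrophage or smooth muscle covariate, and 9 to 54 with 1 array left out. At day 7 the 52 became 24, 1, 0 and 0 with the same 4 covariates in that order, and 31 to 57 with 1 array left out. The 1 higher call of day 7 was 0 with the 60th percentile filter, the control-feature, macrophage or smooth muscle covariate, or 6 arrays, and 1 to 2 with 1 array left out. Between day 7 and day 3 the control-feature covariate gave 1 higher call, and leaving out 1 array 0 to 1. The F test's 40 became 3, 17, 0 and 1 with the control-feature, brown adipocyte, macrophage and smooth muscle covariates, and 9 to 47 with 1 array left out. With the replicate number as a block the calls were 9, 46 and 52, and 30 for the F test.

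Centring deepened the medians of complexes I to V to -0.78, -0.90, -0.98, -0.83 and -0.71 at day 3 and -0.86, -1.10, -0.98, -0.74 and -0.87 at day 7, and quantile normalization that of complex III to -0.84 at day 7. With quantile normalization the pair of Cox6b2, at background on all 12 arrays, and Cox6b1 lost its call (change of 1.28 at day 7) and the pairs Cox7a1 and Cox7a2 (0.30) and Cox8b and Cox8a (0.69) gained one. Changes called at day 7 that turned sign, none called then, were Uqcr11 (0.13), Sdha (0.07), Cox7a1 (0.32) and Ndufa4 (0.05) with the smooth muscle covariate and Cox7a1 (0.02) with the macrophage covariate. Of the 93 changes of named genes, 17 turned sign under some setting without a call on either side, all in 8 complex IV genes. The cause of these moves was not tested.

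Genes near the negative controls are limited by signal over background: of the 10 such subunits, 1, 2 and 2 were called lower at days 1, 3 and 7, and of the other 73, 8, 46 and 50. The 3 arrays per group and a base line of 3 untreated arrays limit every count.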

Other observations

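Clusters left out by name moved with the subunits where they were bright. The cluster of the pseudogene Atp5l-ps1 averaged 11.44, 10.53, 10.31 and 10.69 at days 0, 1, 3 and 7 and was called lower at days 3 and 7 (limma adjusted p = 0.0157 and 0.0393). Atp5l2, a pseudogene under its current RefSeq symbol Atp5l2-ps, averaged 11.12, 10.19, 10.18 and 10.52 and was called on each day (0.0332, 0.017 and 0.0463), while the dimmer pseudogene Atp5c1-ps averaged 6.35, 6.22, 6.11 and 6.16 with no call. The cluster shared by Ndufa11 and Ndufa11b read 6.83 to 7.21 at day 0 and 6.14 to 6.60 on the treated arrays, and that shared by Ndufb4 and Gm3244 read 7.06 to 7.25 and 6.52 to 7.11. Probes of near-identical copies can share signal, so these values are given apart from the counts.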
